A study of Mus musculus with 4 samples.

Results

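The genes described here encode the subunits of sodium, potassium and calcium channels in mouse iMOP cells, an immortalized line of multipotent otic progenitors, and in neurons derived from them. Members were chosen by symbol alone: the Scn alpha and beta genes, every Kcn gene whose symbol ends in a number, and Cacna1a to Cacna1i. The rule found 115 genes among the 49997 symbols of the deposited count tables. It takes in more than voltage-gated pores, because Kcnj genes encode inward rectifiers, Kcnk genes encode leak channels, and several Kcn genes encode auxiliary subunits. Cacna1s falls outside the rule and is given with the partner genes.

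Total RNA was sequenced from 4 wild-type cultures, 2 proliferating and 2 neuronal, in a study of the chromatin remodeller CHD7 during neuronal differentiation. Proliferating cells grew in DMEM/F12 with B27, carbenicillin and 20 ng/ml basic FGF, and the neuron cultures grew in Neurobasal with N21, L-glutamine and 1 µM K03861, which inhibits the kinase CDK2. All 4 libraries come from this one cell line. The titles call the replicates biological and do not say how the cultures were kept apart, so p-values measure the spread between these 2 libraries of each group.

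Voltage-gated sodium channels open on depolarization and carry the rising phase of the action potential. Voltage-gated potassium (Kv) channels end the spike and set how fast a neuron can fire again, and calcium channels couple the spike to transmitter release and gene expression. Spiral ganglion neurons, the auditory neurons that arise from the otic lineage, rely on Kcna-type and Kcnq-type potassium channels to limit firing. Each alpha or alpha1 subunit of a sodium or calcium channel forms a whole pore, while a Kv pore is built from several subunits.

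Counts without the 18S ribosomal RNA row ranged from 2595578 to 3850766 per library. That row held 53.3% and 75.0% of all counts in proliferating replicates 1 and 2, and 59.4% and 76.1% in neuron replicates 1 and 2. Its share was thus higher in both replicate 2 libraries than in either replicate 1 library. In the order proliferating replicates 1 and 2, then neuron replicates 1 and 2, which is kept below wherever 4 values are given, the 12 neuron marker genes summed to 162.5, 351.8, 203.0 and 367.3 CPM (counts scaled to a common library size with TMM factors). The neuron library had the higher sum in each replicate pair, but neuron replicate 1 lay below proliferating replicate 2. Of 11 tested neuron markers, 7 had a log2 fold change above 0 and 0 were called (edgeR). The 7 proliferation markers summed to 330.9, 84.7, 415.1 and 245.6 CPM. All 7 were tested and had a fitted log2 fold change above 0, with a lowest value of 0.010 and a median of 0.30. Of these, 6 were higher in neurons in both replicate pairs, 1 was lower in the first pair and higher in the second, and 0 were called. The 8 spiral ganglion neuron markers summed to 13.47, 7.72, 2.94 and 14.99 CPM. Of these, 4 were tested, with 2 above and 2 below 0 and 0 called, and the defining factors Neurog1 and Gata3 had at most 2 counts in any library. In bulk samples, fewer cells of a type and less RNA per cell cannot be told apart.

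Most channel genes were at the edge of detection or below it. Detection here means 10 or more counts in a library, and 48 of the 115 genes (41.7%) reached it in at least 1 library, against 52.4% of all protein-coding genes and 28.6% of all genes in the table. In all 4 libraries it was reached by 19 members (16.5%), against 40.7% of protein-coding genes and 20% of all genes. A further 40 members were counted but never reached 10, and 27 had 0 counts in every library. Members close to the limit included Cacna1a, Cacna1h and Kcnd2, each with a highest count of 10. Kcnc4 had a highest count of 9. A count of 0 allows up to 3 counts, which is 0.246 to 0.406 CPM depending on the library, for counting error only.

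Proliferating replicate 1 had 35 detected members and replicate 2 had 25. The neuron replicates had 29 and 35. Among protein-coding genes the detected shares were 49.6%, 43.5%, 47.6% and 47.2% in the same order (26.1%, 21.5%, 25.7% and 24.1% of all genes). When each library was scaled to the smallest depth without the 18S row, the member counts were 31, 25, 25 and 30. The number of channel genes therefore differed within each group as much as between the groups.

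**Figure D1:**
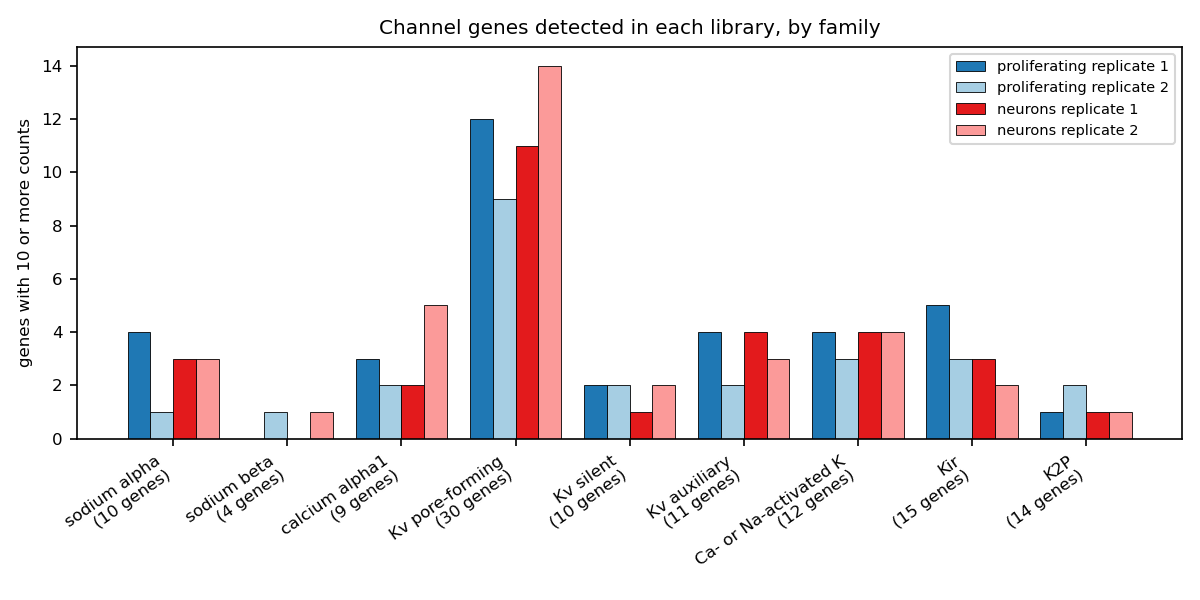
Number of channel genes with 10 or more counts (y axis) in each of the 4 libraries (bar colours), by channel family (x axis, with family size). The 30 Kv pore-forming genes had 9 to 14 detected members per library, and no sodium beta gene was detected in either replicate 1 library.

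Of the 10 sodium channel alpha genes, 4 were detected in some library. Scn8a, the main alpha subunit of the axon initial segment and nodes in mature neurons, had 88, 63, 51 and 69 counts. It averaged 7.88 ± 0.918 CPM in the proliferating libraries and 5.66 ± 1.94 CPM in the neuron libraries (SD, n = 2). Scn8a was the sole alpha gene detected in all 4 libraries, and its groups did not overlap although the highest neuron value lay close to the lowest proliferating one. The fitted log2 fold change, neurons over proliferating, was -0.48 (SE 0.50, edgeR adjusted p-value 0.9998).

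Scn3a, an alpha subunit known from embryonic neurons, had 14, 2, 13 and 59 counts. Neuron replicate 2 was high and the other 3 libraries were low, so the groups overlapped. Its log2 fold change of 2.22 (SE 1.02) was the highest among tested members, with an edgeR unadjusted p-value of 0.064. Without neuron replicate 2 it fell to 0.55. Scn2a, which serves early axons, had 19, 4, 15 and 16 counts, with a single low library, proliferating replicate 2.

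Scn1a had 5, 1, 6 and 6 counts, and Scn9a, of peripheral sensory neurons, had a single count in neuron replicate 2. Scn4a of skeletal muscle, the sodium-sensing Scn7a, and Scn10a and Scn11a of pain-sensing neurons were at 0 in all 4 libraries.

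The 4 sodium beta genes encode single-pass proteins that modify gating and cell adhesion. Scn3b had 8, 0, 0 and 26 counts, and both groups had a library at 0. Scn2b had 7, 0, 0 and 7 counts. Scn4b was at 0 throughout. No beta gene had counts in both libraries of either group.

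Among the calcium channel alpha1 genes, 6 of 9 were detected in some library and 1 in all 4. Cacna1c, an L-type pore, had 173, 45, 133 and 101 counts. It averaged 10.2 ± 5.74 CPM in the proliferating libraries and 10.7 ± 0.630 CPM in the neuron libraries (SD, n = 2), and its log2 fold change was 0.07 with SE 0.55 (edgeR adjusted p-value 0.9998). The proliferating libraries lay on either side of the neuron libraries.

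Cacna1d, the L-type channel best known from inner hair cells, had 7, 0, 8 and 75 counts. The high value was in neuron replicate 2 alone, and neuron replicate 1 lay close to proliferating replicate 1. The gene did not pass the expression filter of the main fit. The fit without that filter, in which 0.63% of 25859 genes were called, called it higher in neurons (log2 fold change 3.65, SE 0.88, edgeR adjusted p-value 0.0089). Cacna1b, the N-type channel of synaptic terminals, had 15, 26, 3 and 49 counts, with the neuron libraries as the lowest and the highest of the 4.

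The T-type genes, which open near the resting potential, went in opposite directions. Cacna1g had 8, 5, 35 and 11 counts and Cacna1h had 10, 5, 0 and 0. For Cacna1g the log2 fold change was 1.60 with SE 0.84 (edgeR unadjusted p-value 0.095, adjusted 0.9998), and the groups did not overlap. Against the 3 counts that a zero allows over the group, Cacna1h was at least 5.55-fold higher in proliferating cells. Cacna1h did not pass the filter, and without the filter its edgeR adjusted p-value was 0.337. The third T-type gene, Cacna1i, had 0, 1, 0 and 1 counts. The P/Q-type gene Cacna1a had 7, 2, 9 and 10 counts, Cacna1e had 2 counts in neuron replicate 1 alone, and the retinal Cacna1f had 1 count in proliferating replicate 1 alone.

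The 30 Kv pore-forming genes include the member with the most counts. Kcnd3, a subunit of the fast-inactivating A-type current, had 243, 180, 26 and 199 counts. It averaged 22.2 ± 3.11 CPM in the proliferating libraries and 11.2 ± 12.8 CPM in the neuron libraries (SD, n = 2). A single library, neuron replicate 1, was low, and neuron replicate 2 lay between the proliferating replicates. The log2 fold change was -0.98 with SE 0.89 (edgeR adjusted p-value 0.9998). Leaving out neuron replicate 1 gave -0.17, and leaving out replicate 2 gave -3.33. The related A-type gene Kcnd2 had 10, 5, 2 and 0 counts.

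Kcnc1 encodes a high-threshold channel of fast-spiking neurons. It had 46, 106, 21 and 48 counts, a log2 fold change of -1.44 (SE 0.78) and an edgeR unadjusted p-value of 0.107. Proliferating replicate 2 held the highest value, and the groups overlapped, proliferating replicate 1 lying below neuron replicate 2. Without proliferating replicate 2 the value for Kcnc1 was -0.19. Kcnc4 had 9, 8, 0 and 0 counts, at least 6.29-fold higher in proliferating cells, and Kcnc2 was at 0. Kcnc4 did not pass the filter, and without the filter its edgeR adjusted p-value was 0.189.

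Among the Kcnq genes, Kcnq3, a subunit of the slow M-type current that restrains repetitive firing, had 65, 7, 23 and 93 counts. Neuron replicate 2 was the highest library and neuron replicate 1 lay below proliferating replicate 1. The log2 fold change was 0.82 (SE 0.95, edgeR adjusted p-value 0.9998). Kcnq5, of the same group, had 76, 28, 36 and 40 counts, and the epithelial and cardiac Kcnq1 had 2 counts in neuron replicate 1 alone.

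Among the Kcna genes, Kcna2 was the sole detected member, with 68, 29, 37 and 124 counts. Its partner in low-threshold axonal channels, Kcna1, was at 0 in all 4 libraries, as were Kcna5, Kcna6 and Kcna10. Kcna2 averaged 4.76 ± 1.17 CPM in the proliferating libraries and 7.88 ± 6.74 CPM in the neuron libraries (SD, n = 2), so the spread between neuron replicates exceeded the difference between groups.

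The Kcnh genes encode the eag, erg and elk channels. Kcnh7, an erg-type gene, had 104, 12, 204 and 28 counts, which ordered the libraries by replicate number rather than by group. It was higher in neurons within each replicate pair, by 0.99 and 0.75 log2 units. Kcnh2, also erg-type, had 28, 34, 25 and 33 counts. Kcnh5, eag-type, had 49, 8, 2 and 25 counts, with neuron replicate 1 lowest. Kcnh1, the founding eag-type gene, had 0, 2, 11 and 14 counts, an 11.3-fold higher level in neurons by summed counts (95% exact counting interval 2.81 to 98.2). It did not pass the filter, and without the filter its edgeR adjusted p-value was 0.638.

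**Figure D2:**
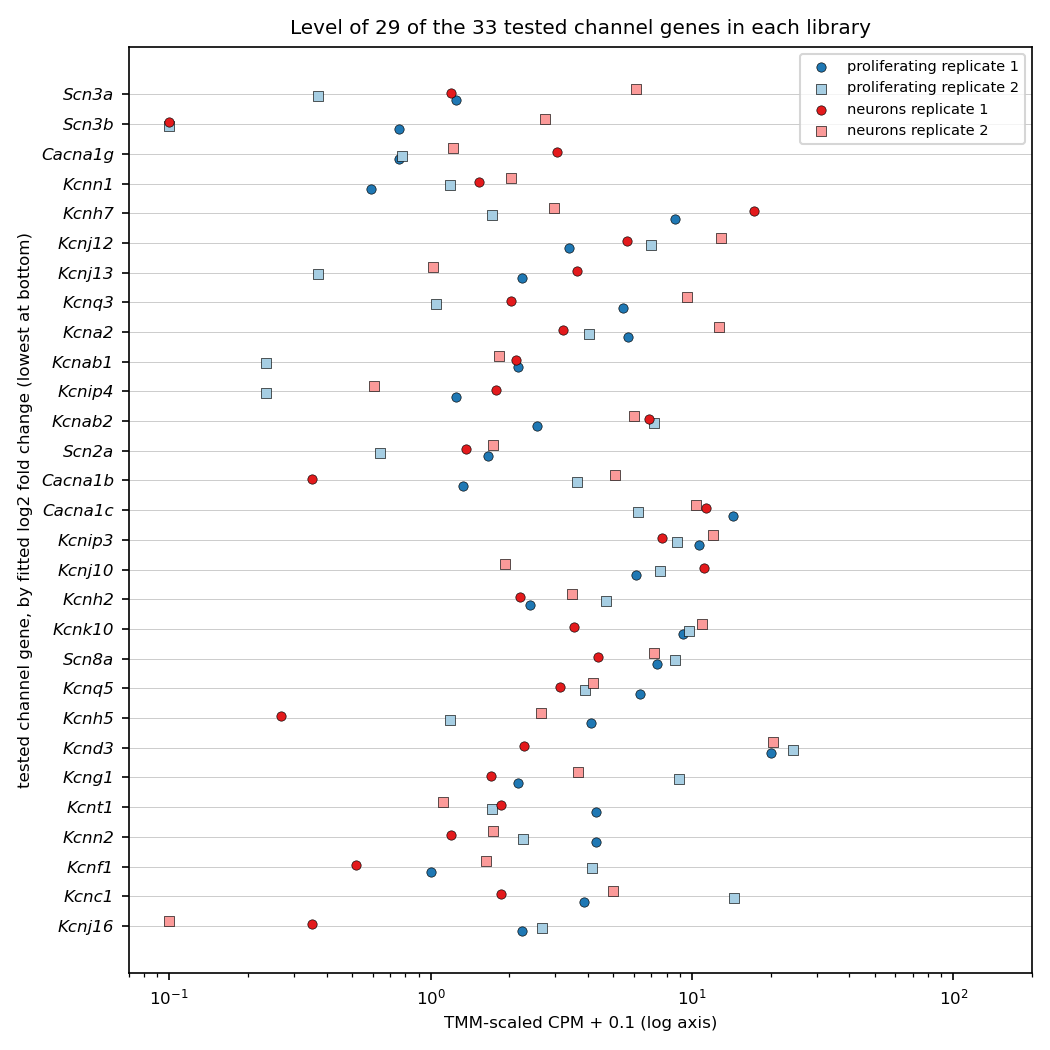
TMM-scaled CPM plus 0.1 (x axis, log scale) of 29 of the 33 tested channel genes (y axis, ordered by fitted log2 fold change) in each of the 4 libraries (points; circles replicate 1, squares replicate 2). The 2 libraries of a group often lie farther apart than the groups, as for Kcnd3, Kcnq3 and Scn3a.

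Silent Kv subunits form no channel alone and modify Kcnb pores. Kcng1 had 25, 65, 19 and 35 counts and Kcnf1 had 11, 30, 5 and 15, with proliferating replicate 2 highest for both genes and lower values in neurons within both pairs. The other 8 silent genes stayed below 10 counts: Kcng2, the next by level per length, had 2, 1, 3 and 0, and Kcng4, Kcns1, Kcns3 and Kcnv1 were at 0. The fitted log2 fold changes were -1.06 (SE 0.80) for Kcng1 and -1.33 (SE 0.99) for Kcnf1.

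The auxiliary genes were carried by Kcnip3, whose product is a calcium-binding partner of Kcnd channels that is also known as a transcriptional repressor. It had 128, 64, 90 and 117 counts, and averaged 9.59 ± 1.31 CPM in the proliferating libraries and 9.75 ± 3.08 CPM in the neuron libraries (SD, n = 2). Its log2 fold change of 0.02 had an SE of 0.49, the smallest among the tested members. The beta subunit gene Kcnab2 had 30, 52, 80 and 58 counts, Kcnab1 had 25, 1, 24 and 17, and Kcnip4 had 14, 1, 20 and 5. Proliferating replicate 2 was thus the low library for Kcnab1 and Kcnip4. The Kcne genes, which encode small subunits of Kcnq and Kcnh channels, had at most 1 count in any library.

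Calcium- and sodium-activated potassium channels shape the pause after a spike. Kcnn1, of the small-conductance (SK) group, had 6, 8, 17 and 19 counts with no overlap between groups (log2 fold change 1.12, SE 0.83, edgeR adjusted p-value 0.9998). Kcnn2, of the same group, had 51, 16, 13 and 16 counts, and its log2 fold change was -1.23 (SE 0.66) with an unadjusted p-value of 0.103. Kcnn3 had 61, 0, 5 and 2 counts, and the intermediate-conductance Kcnn4 had 1, 27, 3 and 1, so each was high in a single proliferating library, and not in the same one. Kcnt1, the sodium-activated gene, had 51, 12, 21 and 10 counts. The large-conductance (BK) pore gene Kcnma1 had 17, 6, 0 and 3 counts, 8.51-fold higher in proliferating cells by summed counts (95% exact counting interval 2.57 to 44.2). Kcnma1 did not pass the filter, and without the filter its edgeR adjusted p-value was 0.973. The BK beta genes Kcnmb3 and Kcnmb4 had 7, 0, 20 and 6 counts and 5, 3, 9 and 11 counts. Of the Kcnmb4 exon length, 31.5% overlaps antisense genes. The sample titles call the RNA-seq stranded, but whether the counting used the strand is not given, so the Kcnmb4 counts are uncertain.

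The inward rectifiers include the member with the lowest p-value among the 33 tested, Kcnj16. Kcnj16, on chromosome 11 at 110968033 to 111027968 (GRCm38), encodes a subunit that pairs with Kcnj10 in glia, kidney and other epithelia, and Kcnj10 itself clears potassium in glial cells. Kcnj16 had 26, 19, 3 and 0 counts. It averaged 2.35 ± 0.308 CPM in the proliferating libraries and 0.126 ± 0.178 CPM in the neuron libraries (SD, n = 2). It was the sole one of the 115 members detected in both proliferating libraries and neither neuron library, as were 141 of all 49997 genes. The reverse, detection in both neuron libraries and neither proliferating one, held for 3 of the 115 members and for 159 of the 49997 genes. These 3 members were Cacna1g, Kcnh1 and Kcnn1. The summed counts of Kcnj16 differed 16.6-fold (95% exact counting interval 5.34 to 83.7). The log2 fold change was -4.01 with SE 1.14, an edgeR unadjusted p-value of 0.0089 and an adjusted p-value of 0.937. Without the filter it was called lower in neurons (log2 fold change -3.98, edgeR adjusted p-value 0.0372), and leaving out neuron replicate 1, the only neuron library with counts for it, made the fitted value -7.55.

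Glial markers varied between the libraries as well, and none was called. The 6 astrocyte and radial glia markers summed to 176.2, 120.5, 83.3 and 69.4 CPM, with none of the 6 at 0 in all libraries. Of 5 tested, 3 were lower in neurons in both pairs and 2 were lower in the first pair and higher in the second. Among the 5, 1 had an edgeR unadjusted p-value under 0.05, and it was lower in neurons. The lowest log2 fold change of the list was -6.47. Its lowest edgeR adjusted p-value, 0.110, was also the lowest over all tested genes. Gfap had 181, 89, 1 and 2 counts, Aqp4 had 356, 2, 31 and 5, and Slc1a2 had 207, 67, 180 and 507. The 8 oligodendrocyte and Schwann markers summed to 14.6, 96.6, 6.81 and 11.2 CPM, and the defining myelin gene Mbp had at most 2 counts in any library. All 4 tested were lower in neurons in both pairs and highest in proliferating replicate 2, and 2 had an edgeR unadjusted p-value under 0.05. The part of these cells in the Kcnj16 result was not tested. Kcnj10 did not follow Kcnj16, with 73, 55, 131 and 18 counts and a log2 fold change of -0.05 (SE 0.78).

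Kcnj12, a strong inward rectifier of muscle and neurons, had 40, 51, 66 and 126 counts and was higher in neurons within both pairs, by 0.72 and 0.88 log2 units. Its fitted value of 0.86 (SE 0.63) had an edgeR unadjusted p-value of 0.209. Kcnj13, a weak rectifier of epithelia, had 26, 2, 42 and 9 counts, and 49.1% of its exon length overlaps the gene Gigyf2 on the other strand. Its counts are uncertain, since it is not given whether the counting used the strand. Kcnj4 had 11, 8, 9 and 4 counts.

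Leak channels of the Kcnk group hold the resting potential. Kcnk10, a mechanically gated member, had 111, 71, 41 and 106 counts, with neuron replicate 1 low and the other 3 libraries close together. Kcnk3, an acid-sensitive member, had 2, 85, 1 and 1 counts. All but 4 of its counts came from proliferating replicate 2, so its unfiltered fit, which called it lower in neurons (log2 fold change -5.72, SE 1.00, edgeR adjusted p-value 1.3e-05), rests on that library. Kcnk10 and Kcnk3 were the sole detected members of the 14 Kcnk genes, and Kcnk5, an alkali-activated member, had 7, 7, 8 and 4 counts.

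Levels can be compared between genes only per length. The deposited RPKM values were not used for that, since the length behind them often differed from the merged exon length. Its ratio to the merged exon length had a median of 3.69 over the 88 members with counts and ranged from 0.515 to 35.4. Over all genes with a length the median ratio was 1.78. On CPM per kilobase of merged exons, averaged over the 4 libraries, the members among the highest were Kcnip3 (2.73), Kcnj12 (2.60) and Kcnd3 (1.74). Scn8a, the highest sodium alpha gene, was at 0.429 and Cacna1c, the highest calcium alpha1 gene, was at 0.493 on this scale. The median over the 33 tested members was 0.482, against 1.52 over the 11597 tested genes with a length. Sodium and calcium pores therefore lay below the leading potassium channel genes in these cultures.

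Between neurons and proliferating cells, no channel gene passed the test as designed, and the lowest p-value was that of Kcnj16, which had its lower values in neurons. The filter kept 33 of the 115 members, and 15 other members with 10 or more counts in some library did not pass it. In the edgeR quasi-likelihood test 0 of the 33 were called at an adjusted p-value under 0.05, beside 0% of all 12783 tested genes. Unadjusted p-values fell under 0.05 for 3 members, Kcnj16 among them, all lower in neurons, where 2.51% of all tested genes were lower at that level, and 0 members were higher, where 0.915% of all genes were. DESeq2 called 0 of the 33 (0.462% of all genes), and blocking on the replicate number left 0 called (0.0235% of all genes). The fit without a filter called 3 of 88 members: Cacna1d higher in neurons, as were 0.159% of genes, and Kcnj16 and Kcnk3 lower, as were 0.472%. RLE factors called 0 members (0% of genes) and library size alone called 0 (0.0156%). Leaving out proliferating replicate 1 or 2, or neuron replicate 1 or 2, called 0 members in each case, beside 0.994%, 0.125%, 0.211% and 0.102% of genes. Fitted log2 fold changes ranged from -4.01 to 2.22 with SEs of 0.49 to 1.78.

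By direction alone, 18 tested members were higher and 15 lower in neurons, with a median log2 fold change of 0.07 against 0.02 over all tested genes. Of all 12783 tested genes, 6651 were higher and 6132 lower. All 4 tested auxiliary Kv genes and all 3 tested calcium alpha1 genes had values above 0, between 0.02 and 0.70 and between 0.07 and 1.60, and none passed the test. Higher in both replicate pairs were 1 of the 4 auxiliary and 1 of the 3 calcium alpha1 genes, beside 28.8% of all tested genes. The lowest of each family, Kcnip3 and Cacna1c, were below 0 with library size as the only scaling, as was Cacna1b. The Kv pore-forming genes had 5 of 12 above 0 and a median of -0.42. Both silent Kv genes were below 0.

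Of the 48 members with 10 or more counts in some library, 10 had groups that did not overlap with lower values in neurons, which is 20.8% beside 14.6% of all such genes. They included Cacna1h, Kcnd2, Kcnj16, Kcnj4, Kcnk3, Kcnma1, Kcnn2 and Scn8a. Another 8 (16.7%, beside 13.5%) did not overlap with higher values in neurons, namely Cacna1a, Cacna1d, Cacna1g, Kcnh1, Kcnh6, Kcnmb3, Kcnmb4 and Kcnn1. At least 1 log2 unit lower in both replicate pairs were 6 of the 48 (12.5%), Cacna1h, Kcnc1, Kcnd2, Kcnj16 and Kcnma1 among them, beside 2.71% of all such genes. At least 1 log2 unit higher in both pairs were Kcnh1 and Kcnmb3 (4.17% beside 2.42%). Of the genes named for a difference of at least 1 log2 unit in both pairs, Kcnc1 and Kcnj16 passed the filter.

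The replicate pairs went opposite ways for 16 of the 33 members (48.5%), close to the 45.7% of all tested genes, and mostly in 1 of the 2 possible orders. The median difference of the 33 members was -0.53 log2 units between the replicate 1 libraries and 0.48 between those of replicate 2, against -4.2e-05 and 0.067 over all tested genes. Lower in the first pair and higher in the second were 14 of the 33 (42.4%), beside 24.5% of all tested genes. They included Scn2a, Scn3a, Scn3b, Cacna1b, Cacna1c, Kcna2, Kcnq3, Kcnq5, Kcnh5, Kcnab1, Kcnip3 and Kcnk10. The reverse order held for 2 (6.06%, beside 21.2%). Lower in both pairs were 11 (33.3%, beside 25.5%), and higher in both were 6 (18.2%, beside 28.8%). Neuron replicate 2 held the highest CPM for 12 of the 33 (36.4%, beside 19.5% of all tested genes) and proliferating replicate 2 for 10 (30.3%, beside 34.0%). Proliferating replicate 1 held it for 6 (18.2%, beside 20.1%) and neuron replicate 1 for 5 (15.2%, beside 26.3%). The absolute difference between the neuron replicates had a median of 1.25 log2 units over the 33 members, larger than the 0.85 between group means. Over all tested genes it was 0.47, also larger than their 0.38 between group means. The difference between group means exceeded both replicate differences in 5 of the 33 members (15.2%), beside 15.8% of all tested genes.

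**Figure D3:**
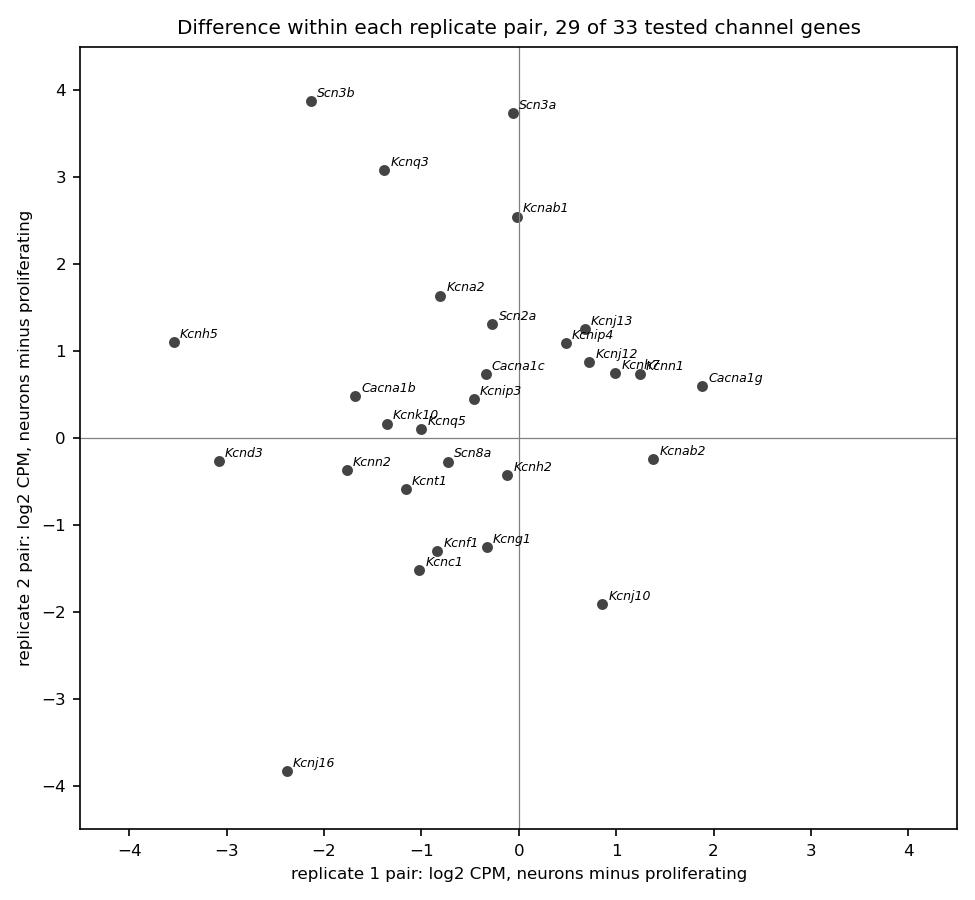
Difference in log2 CPM (neurons minus proliferating, prior count 2) of 29 of the 33 tested channel genes (points) in the replicate 1 pair (x axis) and the replicate 2 pair (y axis). The upper left holds 12 genes that were lower in the first pair and higher in the second, and Kcnj16 lies at the lower left.

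Of 11 tested neuron markers, 5 were lower in the first pair and higher in the second, 3 were the reverse, 2 were higher in both and 1 was lower in both. Snap25 had 16, 7, 2 and 35 counts and Rbfox3 had 34, 7, 17 and 42, while Elavl4, with 92, 90, 211 and 373, had its higher value in neurons in each pair. Muscle and fibroblast markers were low, with Myog, Tnnt2, Col1a2 and Dcn at 0 in all 4 libraries, although Pdgfra had 119, 66, 200 and 70 counts. Hair cell markers Pou4f3 and Otof were at 0, and Atoh1 had 17, 18, 1 and 91 counts. The part of the makeup of the cultures in the channel values was not tested.

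The partner list covers calcium channel auxiliary subunits, HCN pacemaker channels, the leak channel complex and the scaffolds that hold channels at the axon initial segment. Of its 40 genes 39 were in the tables and 22 were tested, with 10 above and 12 below 0, and 0 were called in either direction (edgeR). Ank3, which encodes the ankyrin G scaffold that gathers sodium and Kcnq channels at the initial segment, had 24, 110, 297 and 441 counts. The groups did not overlap, although the proliferating libraries differed strongly from each other. The log2 fold change was 2.07 (SE 0.88), with an edgeR unadjusted p-value of 0.0490 and an adjusted p-value of 0.9998. Without the filter Ank3 was called higher (edgeR adjusted p-value 0.0469).

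Fgf11, a sodium channel-binding FGF homologue that is not secreted, had 4, 1, 12 and 18 counts and a log2 fold change of 2.47 (SE 1.03, edgeR unadjusted p-value 0.0454). Its relative Fgf13 had 1, 3, 7 and 20 counts, while Fgf12 had 34, 4, 0 and 2. The related genes thus did not share a direction. Ank2 was by far the most counted partner, with 2406, 983, 2387 and 1821 counts.

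The calcium channel beta gene Cacnb3 was higher within both pairs, with 47, 49, 87 and 109 counts, and Cacnb1 was lower within both, with 28, 23, 9 and 13. Cacna2d1, which aids the surface delivery of calcium channels, had 56, 42, 12 and 30 counts, and Cacna2d3 had 57, 2, 6 and 45, so that the pairs went opposite ways. The muscle gene Cacna1s had 0, 0, 9 and 3 counts. Hcn2 had 12, 1, 1 and 39 counts and Hcn4 had 3, 7, 3 and 43, both highest in neuron replicate 2. Dpp6, the partner of Kcnd channels, was at 0 in all 4 libraries and Dpp10 had 1 count. Rest, the repressor of many neuronal genes including channels, had 366, 149, 347 and 144 counts and a log2 fold change of -0.20 (SE 0.53), with values ordered by replicate number.

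Promoter sequence was examined because CpG-rich starts are common among genes active in many cell types. RefSeq (GRCm38.p6) promoter entries matched 83 of the 115 members, and the 250 bases before the start were taken, using the start with the most CpG where a gene has several. The shown sequences are the most CpG-rich start of a member detected in all 4 libraries (Cacna1c), the member with the most counts (Kcnd3), the member detected in proliferating libraries alone in both replicates (Kcnj16), and a member at 0 counts with no CpG (Kcna10). Each is written 5′ to 3′ on the strand of the gene, with CpG dinucleotides in capitals.
Cacna1c, chr6:119108496-119108745, minus strand: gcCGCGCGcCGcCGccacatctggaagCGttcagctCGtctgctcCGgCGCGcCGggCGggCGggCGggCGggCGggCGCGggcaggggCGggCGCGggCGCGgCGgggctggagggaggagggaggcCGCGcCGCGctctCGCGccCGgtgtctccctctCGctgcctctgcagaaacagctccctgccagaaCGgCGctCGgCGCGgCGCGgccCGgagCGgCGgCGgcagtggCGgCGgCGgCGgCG
Kcnd3, chr3:105451640-105451889, plus strand: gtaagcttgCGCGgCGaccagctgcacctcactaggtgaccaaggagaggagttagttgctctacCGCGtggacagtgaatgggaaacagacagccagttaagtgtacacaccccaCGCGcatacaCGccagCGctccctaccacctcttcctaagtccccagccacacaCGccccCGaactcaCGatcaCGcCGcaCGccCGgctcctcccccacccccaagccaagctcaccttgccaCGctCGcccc
Kcnj16, chr11:110997237-110997486, plus strand: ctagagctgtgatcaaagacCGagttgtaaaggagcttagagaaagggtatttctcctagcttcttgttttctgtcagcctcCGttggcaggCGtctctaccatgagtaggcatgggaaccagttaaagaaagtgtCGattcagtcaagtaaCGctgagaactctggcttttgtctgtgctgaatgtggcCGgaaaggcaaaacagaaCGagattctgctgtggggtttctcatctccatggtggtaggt
Kcna10, chr3:107182893-107183142, plus strand: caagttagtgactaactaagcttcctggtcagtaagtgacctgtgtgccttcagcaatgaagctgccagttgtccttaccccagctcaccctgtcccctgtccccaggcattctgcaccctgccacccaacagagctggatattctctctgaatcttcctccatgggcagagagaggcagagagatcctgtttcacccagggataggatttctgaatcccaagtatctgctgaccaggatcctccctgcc
These windows hold 48, 18, 7 and 0 CpG dinucleotides, and their G and C content is 82.8%, 62.8%, 47.6% and 53.2%.

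CpG counts followed the extent of detection. The median was 18 for the 13 matched members detected in all 4 libraries and 10 for the 19 detected in 1 to 3. It was 9.5 for the 30 counted below 10 in every library and 5 for the 21 at 0. Among all genes with an entry the medians were 19, 11, 5 and 2 in the same classes, so the same order held beyond the channel genes. The classes overlapped: Kcnj12, detected in all 4 libraries, had 4 CpG, and 2 members at 0 counts had 23 each. This is a description across genes, which are not independent replicates.

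**Figure D4:**
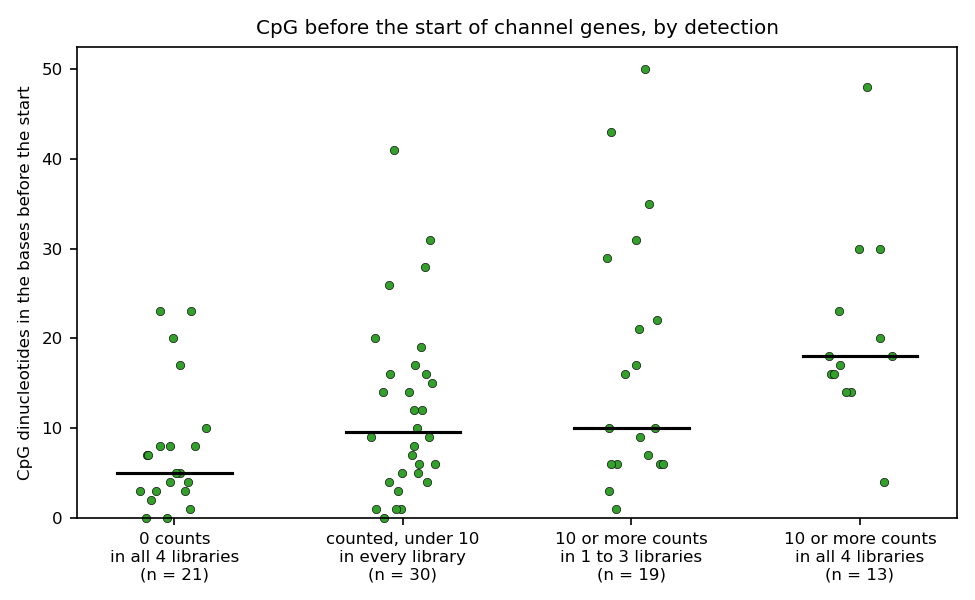
Number of CpG dinucleotides in the 250 bases before the start (y axis) of the 83 matched channel genes (points), by detection class (x axis), with the median as a line. The median is 5 for genes at 0 counts and 18 for genes detected in all 4 libraries, and the classes overlap.

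The binding motif of the repressor REST, called RE1, was searched as its arms on both strands of the same windows. The left arm TTCAGCACC was found in 1 of 83 members, Kcnh6, and in 0.348% of the 27025 genes with an entry. The right arm and the joined core of the motif, each searched by a longer pattern, were found in 0 members and in 0.118% and 0.037% of genes. No match says only that these letters are not in the windows searched.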

How the data were processed

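Members, families and lists were chosen with earlier results of these data known. Of 40 partner genes, Nalf1 was not found by that symbol. Raw counts per gene symbol were deposited by the authors, together with RPKM values that the authors computed from these counts, the total of each count column and one length per gene. The submitters' processing notes name HISAT2, SAMtools, featureCounts, DESeq2, deepTools 3.4.3 and the build mm10, without their roles. The sample titles call the RNA-seq stranded. The strand setting of the counting, the annotation and the treatment of reads with several matches are not given in the sources used here. Total counts, 18S row included, were 7446361 and 10377984 for proliferating replicates 1 and 2 and 9474127 and 14484011 for neuron replicates 1 and 2.

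Groups came from sample titles. The main test on the deposited counts was edgeR 4.0.16 (R 4.3.3) with TMM factors, filterByExpr (minimum count 10, minimum total 15) and the quasi-likelihood F-test, with group as the single term, two-sided, with Benjamini-Hochberg adjustment over 12783 genes. SE is the log2 fold change divided by the square root of F. CPM uses the TMM-adjusted library size, pair differences use a prior count of 2, and ± is the SD over 2 libraries. Single values were not permuted, because the smallest two-sided p from an exact permutation of 2 against 2 is 0.333. Replicate 2 titles in both groups carry the word set, and deviations from the group means correlated between same-numbered libraries (r = 0.33), so the replicate number was taken to pair libraries. The edgeR fit was tested on simulated counts of the comparison of neurons with proliferating cells: with 12783 genes, 94.4% of 89 genes changed 16-fold and 18.0% of 111 genes changed 4-fold were called. The changed genes were drawn above a cut on mean CPM, and each library was simulated independently, without replicate pairs. These shares therefore need not hold for members with low counts. Alternatives were RLE factors, library size alone, DESeq2 1.42.0, no filter, a replicate block, and each library left out in turn. Levels between genes use CPM per kilobase of merged exons, chosen after the deposited lengths were seen. Every member may be named. Values per library are given for members with an unadjusted p-value under 0.05 or a call under any alternative, the highest 3 of each family by level, the largest changes, and members at least 1 log2 unit apart in both pairs. Others are named by family. Values of some members and listed genes are not reported here, also in the figures, while counts over members include them. Exon lengths and gene coordinates come from GENCODE M21 (GRCm38) and promoters from RefSeq GRCm38.p6. Intervals cover counting error only, as reads without molecular identifiers are not independent molecules.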

Additional observations from a re-analysis of the deposited data

How the results depend on the processing

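The number of called channel genes was 0 under every setting tried except the fit without a gene filter, with 3, where genes counted in a single library are tested too. Leaving out each library in turn gave 0 in all 4 fits, in which the lone library is assumed to vary like the other group. The median log2 fold change of tested members then ranged from -0.72, without neuron replicate 2, to 0.14, without proliferating replicate 1. With 1 or more counts as detection, the proliferating libraries had 70 and 58 detected members and the neuron libraries 66 and 69. With a deposited RPKM of 0.1 or more the numbers were 25 and 16 in the proliferating libraries and 17 and 14 in the neuron libraries, so that neuron replicate 2 went from joint highest to lowest. These RPKM values divide by the total of each count column, 18S row included, and that total was largest in neuron replicate 2 (14484011). Scaling by library size alone moved the median of all genes to -0.27 from 0.02, and it turned Cacna1b to -0.27, Cacna1c to -0.39, Kcnip3 to -0.41, Kcnq3 to -0.074 and Scn2a to -0.11. The replicate block turned Cacna1b to -0.54 and Kcnip3 to -0.011 and changed no call of a member. The cause was not tested.

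Of the 33 tested members, 13 kept their direction whichever library was left out. The other 20 turned, and among them the log2 fold change ranged from -3.15 to 1.06 for Cacna1b, from -0.40 to 0.79 for Cacna1c, from -0.62 to 1.36 for Kcna2, from -0.13 to 3.65 for Kcnab1, from -0.18 to 1.36 for Kcnab2, from -2.50 to 0.086 for Kcnf1, from -1.80 to 0.32 for Kcng1, from -0.78 to 0.24 for Kcnh2, from -3.86 to 0.26 for Kcnh5, from -0.88 to 2.61 for Kcnh7, from -0.34 to 0.27 for Kcnip3, from -0.43 to 2.91 for Kcnip4, from -1.90 to 0.71 for Kcnj10, from -0.47 to 2.98 for Kcnj13, from -1.44 to 0.17 for Kcnk10, from -0.72 to 2.53 for Kcnq3, from -0.11 to 1.37 for Scn2a and from -4.97 to 6.64 for Scn3b.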
